A study of Mus musculus with 12 samples.

Results

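The 6 genes described here are those of the chemokines Cxcl9, Cxcl10, Cxcl11 and Cxcl16 and of the receptors Cxcr3 and Cxcr6, with Cxcl11 annotated as a polymorphic pseudogene in the C57BL/6J reference. They were taken by symbol from 32416 genes in a table of RNA levels of mouse melanoma tumours, and all 6 were found. Levels are in TPM, a unit of transcript abundance that is scaled for gene length and library total. The study asked how added Aoah, which encodes the acyloxyacyl hydrolase enzyme, a lipase that removes acyl chains from bacterial lipopolysaccharide, altered tumours under checkpoint antibodies. There were 4 groups of subcutaneous tumours in C57BL/6 mice, all formed by lines of the B16 melanoma. The B16mhgp100 line gave 4 tumours with Aoah and 4 with the Vector, and these mice received anti-PD1 from day 10 after inoculation. The B16F10 line gave 2 tumours with Aoah and 2 with the Vector, and these mice received anti-PD1 and anti-CTLA4 from day 6. Each antibody was given at 200 µg a dose, with 2 doses each week and 4 in all, and harvest followed the last dose by 1 day. No group went without antibody, and the effects of line, antibodies and starting day cannot be told apart, since all 3 changed at once. The labels do not state the promoter that drove Aoah, whether a line was 1 clone or whether each tumour had its own mouse. The p-values therefore measure only how these tumours spread, which may be technical.

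As a family, Cxcl9, Cxcl10 and, where its protein is made, Cxcl11 are the interferon-inducible ligands of Cxcr3, a receptor of activated T cells and natural killer cells, and in tumours they are known for drawing effector T cells in. Macrophages and dendritic cells are well known sources of Cxcl9, while Cxcl10 is made by many cell types, tumour cells included. Cxcl16 is made as a membrane-bound chemokine, is shed by proteases, and binds Cxcr6, a receptor of tissue-resident and effector T cells.

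The libraries held between 13775 and 14791 genes at 1 TPM or more. The 7 melanocyte markers summed to between 7801.74 and 29291.54 TPM, and 0 of them were at 0 in a whole group. In B16mhgp100, Aoah stood at 17.92, 22.46, 13.96 and 3.91 TPM in Aoah tumours, against 7.58, 0.89, 2.43 and 1.57 TPM in Vector tumours. The lowest of these Aoah values, in the library labelled Aoah 4, was inside the Vector range. That library also stood apart in other genes, with the keratin gene Krt14 at 600.09 TPM and at most 6.23 TPM in any other. In B16F10, Aoah stood at 21.75 and 23.73 TPM in Aoah tumours, against 1.49 and 0.75 TPM in Vector tumours. B16F10 Vector 2 had 10.4% of its TPM from mitochondrially encoded genes, and no other library had over 6.38%. Values of the 6 genes for Aoah minus Vector and between the models are also given without the library labelled Aoah 4 or without B16F10 Vector 2 where these moved them by over 1.5 times or changed a call.

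Cxcl9, Cxcl10 and Cxcl11 lie together on chromosome 5, Cxcl16 on 11, Cxcr6 on 9 and Cxcr3 on X, per the reference annotation. Of the 6 genes, 4 had an upstream window in the RefSeq promoter table (build GRCm38.p6). The windows of Cxcl9 (chr5:92328080-92328329, minus strand) and Cxcl10 (chr5:92348890-92349139, minus strand) are shown because these ligands differed in how their levels moved between groups. Each is the 250 bases before the RefSeq start site, 5′ to 3′ on the gene's strand, with motif matches in capitals.
Cxcl9: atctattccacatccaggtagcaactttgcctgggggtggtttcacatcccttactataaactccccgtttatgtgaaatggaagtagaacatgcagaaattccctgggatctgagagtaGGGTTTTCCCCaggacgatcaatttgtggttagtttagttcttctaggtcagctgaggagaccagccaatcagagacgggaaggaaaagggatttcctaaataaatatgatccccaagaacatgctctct
Cxcl10: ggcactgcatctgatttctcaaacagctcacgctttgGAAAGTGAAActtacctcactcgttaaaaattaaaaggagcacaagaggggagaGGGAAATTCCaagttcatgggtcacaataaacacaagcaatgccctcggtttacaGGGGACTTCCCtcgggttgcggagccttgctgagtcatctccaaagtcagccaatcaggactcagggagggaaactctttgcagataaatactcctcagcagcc
The capitals in Cxcl9, at -130 to -120 from the start site, are overlapping matches on both strands to the NF-kB-like pattern, which is GGG, 5 bases of any kind and CC. Cxcl10 held 1 match to the pattern GAAA, 2 bases of any kind and GAAA, which is like interferon-stimulated response elements (ISRE), at -213 to -204. It also held NF-kB-like matches at -159 to -150 and, overlapping on both strands, at -104 to -94. Among 32851 windows of 250 bases, searched on both strands, 2.98% held the ISRE-like pattern and 45.8% the NF-kB-like one. A pattern like STAT binding sites, TTC, 3 bases of any kind and GAA, was in 7.02% of windows and in none of these 4. A match describes letters in a window and not a bound site.

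**Figure D1:**
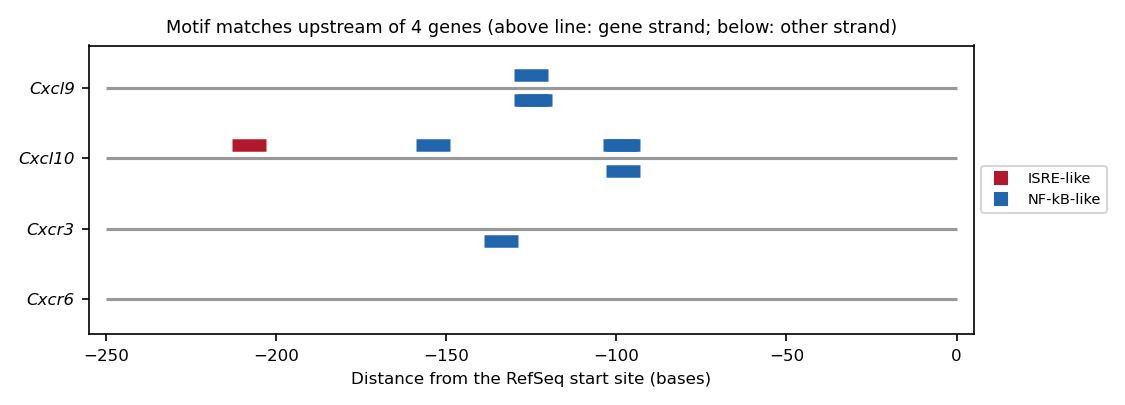
Motif matches in the 250 bases before the start site of Cxcl9, Cxcl10, Cxcr3 and Cxcr6, with the distance from the start site in bases on the horizontal axis and boxes above a line on the gene's strand, below it on the other. Cxcl10 alone of the 4 holds an ISRE-like match, from -213 to -204, and Cxcr6 holds no match.

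Cxcl10 was the most abundant of the 6 in every library, and its level followed the tumour model. It stood at 169.33, 193.36, 154.00 and 137.00 TPM in B16mhgp100 Aoah tumours, against 192.98, 122.56, 244.32 and 245.27 TPM in B16mhgp100 Vector tumours. In B16F10 it stood at 80.59 and 79.39 TPM in Aoah tumours, against 93.40 and 74.09 TPM in Vector tumours. The arms overlapped within each model, and every B16mhgp100 value lay above every B16F10 value.

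Cxcl9 was lower than Cxcl10 throughout and spread more widely relative to its mean. Its levels were 40.16, 22.69, 20.18 and 18.52 TPM in B16mhgp100 Aoah tumours, against 24.68, 11.95, 42.89 and 46.51 TPM in B16mhgp100 Vector tumours. They were 9.30 and 16.81 TPM in B16F10 Aoah tumours, against 4.58 and 2.91 TPM in B16F10 Vector tumours. The arms overlapped in B16mhgp100, and in B16F10 both Aoah values lay above both Vector values.

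Cxcl11 separated the models most. B16mhgp100 Aoah tumours held 15.27, 15.44, 15.61 and 9.93 TPM, against 16.20, 15.06, 22.04 and 23.19 TPM in B16mhgp100 Vector tumours. B16F10 Aoah tumours held 0.13 and 0.33 TPM, against 0.41 and 0.78 TPM in B16F10 Vector tumours. The lowest B16mhgp100 value, 9.93 TPM in the library labelled Aoah 4, was far above all 4 B16F10 values, which were under 1 TPM. Cxcl11 shares 1582 of its 3794 exon bases with the processed pseudogene Gm2673 on the opposite strand, which had at most 1.3 TPM.

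Cxcl16 did not follow the model. It stood at 14.54, 21.57, 6.39 and 22.27 TPM in B16mhgp100 Aoah tumours, against 26.60, 3.85, 13.81 and 12.10 TPM in B16mhgp100 Vector tumours. In B16F10 it stood at 22.29 and 21.11 TPM in Aoah tumours, against 9.39 and 2.71 TPM in Vector tumours. The B16mhgp100 groups overlapped each other and both B16F10 groups, and the B16F10 arms were apart.

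The receptors were low, and Cxcr3 was the higher of the pair in all libraries but the one labelled Aoah 4. It stood at 4.33, 4.48, 4.18 and 1.26 TPM in B16mhgp100 Aoah tumours, against 5.29, 4.42, 5.47 and 5.37 TPM in B16mhgp100 Vector tumours. In B16F10 it stood at 8.59 and 8.72 TPM in Aoah tumours, against 16.46 and 8.87 TPM in Vector tumours. All B16F10 values lay above all B16mhgp100 values, and the lowest value of all was that of the library labelled Aoah 4.

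Cxcr6 was near or under 1 TPM in most tumours. Its levels were 1.17, 1.07, 0.62 and 1.55 TPM in B16mhgp100 Aoah tumours, against 0.86, 0.39, 0.24 and 0.31 TPM in B16mhgp100 Vector tumours. B16F10 Aoah tumours held 6.27 and 7.35 TPM, against 0.64 and 0.19 TPM in B16F10 Vector tumours. The B16F10 Aoah tumours were the only group above 2 TPM, and the other 3 groups each had a value below 1 TPM.

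**Figure D2:**
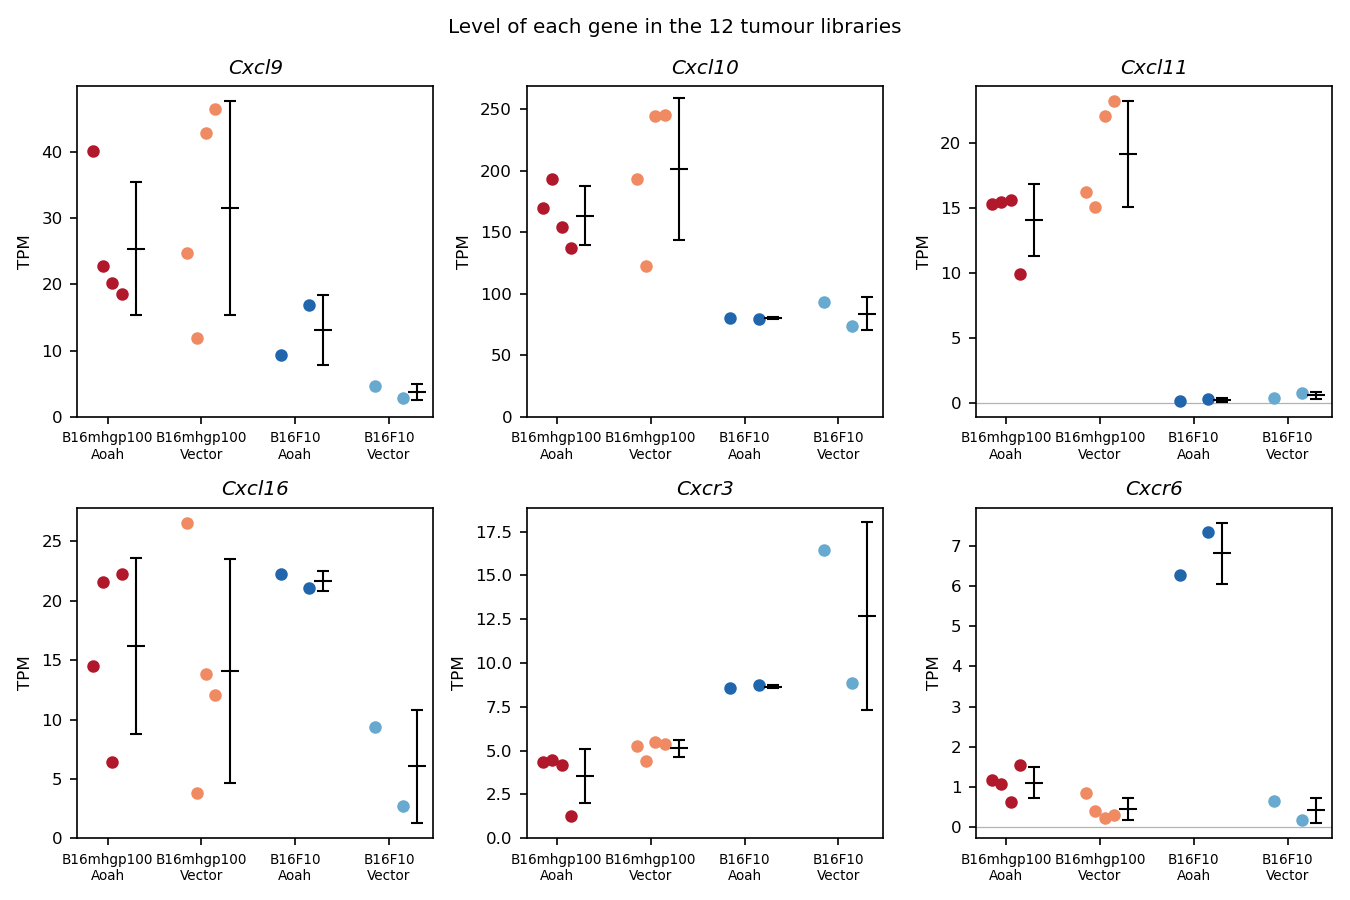
TPM of the 6 genes in each of the 12 libraries (points), by tumour model and arm, with the mean and SD of each group as a bar beside its points (n = 4, 4, 2 and 2). Cxcl11 is at 9.93 TPM or more in B16mhgp100 and below 1 TPM in B16F10, and Cxcr6 is high in the 2 B16F10 Aoah tumours alone, at 6.27 and 7.35 TPM.

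In B16F10, Aoah tumours had more Cxcr6, Cxcl9 and Cxcl16 than Vector tumours in every library, but 0 of the 5 genes that could be tested passed the threshold. The test was limma on log2(TPM + 1) over all genes kept, adjusted by Benjamini-Hochberg, and a gene was called below 0.05. It called 50 of 14533 genes, 0.344%. Cxcr6 averaged 6.81 ± 0.764 TPM in Aoah tumours, against 0.415 ± 0.318 TPM in Vector tumours (SD over 2 libraries in both arms). Its log2 fold change was 2.48 (SE 0.29, limma adjusted p = 0.0571). Cxcl16 averaged 21.7 ± 0.834 TPM in Aoah tumours, against 6.05 ± 4.72 TPM in Vector tumours, which is 1.87 on the log2 scale (SE 0.51, limma adjusted p = 0.159). Cxcl9 averaged 13.1 ± 5.31 TPM in Aoah tumours, against 3.75 ± 1.18 TPM in Vector tumours, which is 1.54 on the log2 scale (SE 0.38, limma adjusted p = 0.143). At an unadjusted p below 0.05 these 3 of 5 passed, beside 18.2% of all genes tested.

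Cxcl10 was at -0.06 (95% interval -0.52 to 0.40) and Cxcr3 at -0.44 (95% interval -1.30 to 0.41) on the log2 scale, with limma adjusted p-values of 0.904 and 0.538. Cxcl11 was below the filter of 1 TPM. Values of the arms did not overlap for 5 of the 6 genes, Cxcl9, Cxcl16 and Cxcr6 being above the Vector tumours and Cxcl11 and Cxcr3 below. With 2 libraries an arm this was so for 50.5% of all genes tested. In place of 50 genes, 128 were called with median-of-ratios scaling and 61 in a fit of all 12 libraries. The call of Cxcr6 depended on the setting. It passed with median-of-ratios scaling (adjusted p = 0.0337) and in a limma fit of all 12 libraries (adjusted p = 0.00806), and did not pass with no filter on low values (adjusted p = 0.237), with a pseudocount of 0.1 TPM (adjusted p = 0.0898) or without any single B16F10 library. Without B16F10 Vector 2 the log2 fold change was 2.25 for Cxcr6, 1.28 for Cxcl9, 1.13 for Cxcl16, -0.22 for Cxcl10 and -0.85 for Cxcr3. Without B16F10 Vector 1, Cxcr3 was at -0.03 and Cxcl10 at 0.11.

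In the authors' deposited table for B16F10, made from counts, the log2 fold change of Cxcr6 was 4.03 (SE 0.67, adjusted p = 2.56e-07), Cxcl16 of 1.89 (SE 0.46, adjusted p = 0.00128) and Cxcl9 of 1.78 (SE 0.43, adjusted p = 0.00137). The authors' deposited table puts 8.53% of 14328 genes past 0.05, with 4.65% higher in Aoah tumours. The limma value of Cxcr6 was 3.89 with a pseudocount of 0.1 TPM in place of 1 TPM. Cxcl11 was at -1.46 in the authors' deposited table (SE 1.07, adjusted p = 0.494), with Cxcl10 at -0.07 and Cxcr3 at -0.53, both not past 0.05.

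T cell transcripts were higher in B16F10 Aoah tumours, as were Cxcr6, Cxcl9 and Cxcl16 but not Cxcl10, Cxcl11 or Cxcr3. The 7 T cell markers summed to 56.91 and 71.12 TPM in Aoah tumours, against 2.78 to 9.08 TPM in Vector tumours. Of these markers 7 of 7 were above 0 in log2 fold change, with a median of 2.52 beside 0.02 over all genes, and 2 rose. Called as higher were 0.289% of all genes. Those 2 were Cd8a, at 3.25 (limma adjusted p = 0.0286), and Cd8b1, at 2.76 (limma adjusted p = 0.0384), which encode the chains of CD8. No gene was called in B16F10 once any single library was left out, so these calls need all 4. The deposited repertoire table gives 30 and 32 clones of the T cell receptor beta chain in B16F10 Aoah tumours, against 2 and 1 in B16F10 Vector tumours. In bulk RNA, more cells of a type and more RNA per cell cannot be told apart, and the part of the T cell markers in these differences was not tested. The 6 macrophage and monocyte markers summed to 524.83 and 576.91 TPM in B16F10 Aoah tumours, against 293.17 and 295.01 TPM in B16F10 Vector tumours. Of these 6, 5 were above 0 with a median of 0.51, and 0 were called. C1qa, a complement gene of macrophages, was at 1.14 (limma adjusted p = 0.0620). Mrc1, the mannose receptor, was the 1 below 0, with 5.96 to 7.86 TPM in Aoah tumours, against 11.35 to 18.86 TPM in Vector tumours (limma adjusted p = 0.211).

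Markers of other cells also differed between the B16F10 arms. Over all genes, 0.344% were called in this comparison. The 3 endothelial markers summed to between 17.60 and 19.98 TPM in Aoah tumours, against 42.59 to 60.74 TPM in Vector tumours, and 3 of 3 were below 0, with a median of -1.21 and 0 called. The 3 fibroblast markers summed to between 41.58 and 64.79 TPM in Aoah tumours, against 115.78 to 126.63 TPM in Vector tumours, and 3 of 3 were below 0, with a median of -0.70 and 0 called. The 4 skeletal muscle markers summed to between 11.35 and 12.63 TPM in Aoah tumours, against 17.45 to 138.76 TPM in Vector tumours, and 3 of 3 tested were below 0, with 0 called. The 7 melanocyte markers summed to between 28245.24 and 29291.54 TPM in Aoah tumours, against 18544.52 to 21777.92 TPM in Vector tumours. Most of that gap was Pmel, which averaged 15236 TPM in Aoah tumours, against 7725 TPM in Vector tumours. Of the 7, 5 were above 0, with a median of 0.25 and 0 called, and Mlana and Mitf were below 0. The 3 keratinocyte markers summed to between 12.70 and 16.11 TPM in Aoah tumours, against 0.43 to 15.02 TPM in Vector tumours, and of 2 tested Krt10 was called, at 3.11 (limma adjusted p = 0.0384). The 4 natural killer cell markers summed to between 4.21 and 7.05 TPM in Aoah tumours, against 0.84 to 1.61 TPM in Vector tumours. All 4 were below 1 TPM in Vector tumours and 3 of 4 in Aoah tumours, where Klrd1 stood at 2.39 and 5.58 TPM. Klrd1, the 1 tested, was above 0 and not called. The 5 markers of conventional dendritic cells summed to between 10.09 and 10.39 TPM in Aoah tumours, against 10.99 to 11.40 TPM in Vector tumours, with 0 of 3 tested called. None of these markers was at 0 in a whole group. The part of these cells in the values of the 6 genes was not tested.

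In B16mhgp100, none of the 6 genes passed the test for Aoah against Vector. In this comparison limma called 0 of 14228 genes (0%), and 350 genes, 2.46%, were at an unadjusted p below 0.05, none of them among the 5 genes tested here. Cxcl10 averaged 163 ± 23.9 TPM in Aoah tumours, against 201 ± 57.9 TPM in Vector tumours (SD over 4 libraries in both arms), and its log2 fold change was -0.26 (95% interval -0.82 to 0.30). Cxcl11 averaged 14.1 ± 2.76 TPM in Aoah tumours, against 19.1 ± 4.09 TPM in Vector tumours, a log2 fold change of -0.42 (95% interval -0.95 to 0.11). For Cxcr3 the log2 fold change was -0.51 (95% interval -1.21 to 0.19), and Cxcl9 was at -0.20 (95% interval -1.18 to 0.79) and Cxcl16 at 0.30 (95% interval -0.96 to 1.56). Without the library labelled Aoah 4, Cxcr3 was at -0.20, Cxcl11 at -0.27, Cxcl9 at -0.07 and Cxcl16 at 0.11, while Cxcl10 was at -0.18. With all B16mhgp100 libraries in the fit, the limma adjusted p-values of these 5 genes lay between 0.694 and 0.827. The median of all genes was -0.20 and moved by 0.18 with median-of-ratios scaling, so the values below 0 of Cxcl9 and Cxcl10 were close to those of a typical gene.

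Cxcr6 was below the filter in the fit of B16mhgp100 alone. In the fit of all 12 libraries its log2 fold change there was 0.54 (SE 0.22, limma unadjusted p = 0.0318, adjusted p = 0.652). The arms overlapped for 6 of 6 genes, beside 5.88% of all genes tested whose arms did not. In the authors' deposited table for B16mhgp100, 0.0146% of 20534 genes were past an adjusted p of 0.05, none of them among these 6. Cxcr6 was at 1.63 there (SE 0.67, authors' unadjusted p = 0.0149, adjusted p = 0.724).

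The difference between the Aoah effects of the models, B16F10 minus B16mhgp100, was tested as an interaction. It was 1.94 for Cxcr6 (SE 0.38, limma adjusted p = 0.172), 1.73 for Cxcl9 (SE 0.72, limma adjusted p = 0.849) and 1.57 for Cxcl16 (SE 0.95, limma adjusted p = 0.849), the last being 0.82 without B16F10 Vector 2. For Cxcl10, Cxcl11 and Cxcr3 it lay between 0.05 and 0.20, and turned below 0 for all 3 with median-of-ratios scaling. Without the library labelled Aoah 4 it was 0.12 for Cxcl10, -0.10 for Cxcl11 and -0.24 for Cxcr3, and without B16F10 Vector 2 it was 0.04, 0.21 and -0.35 in that order. Of the 6 genes 0 were called, beside 0.0302% of 16556 genes, and Cxcr6 and Cxcl9 were at an unadjusted p below 0.05, as were 5.65% of all genes. An effect of Aoah that differs between the models was thus not shown for any of them. The effect common to both models was largest for Cxcr6, at 1.18 (SE 0.32, limma adjusted p = 0.578). It called 0 of 16556 genes (0%), with 8.59% at an unadjusted p below 0.05, Cxcr6 and Cxcl11 among them.

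Between the models, Cxcl11 differed in both arms. Among Aoah tumours it averaged 14.1 ± 2.76 TPM in B16mhgp100 and 0.230 ± 0.141 TPM in B16F10, a ratio of 61.1, with a log2 fold change at 3.60 (SE 0.27, limma adjusted p = 1.15e-04). Among Vector tumours it averaged 19.1 ± 4.09 TPM in B16mhgp100 and 0.595 ± 0.262 TPM in B16F10, a ratio of 32.1, with a log2 fold change at 3.64 (SE 0.27, limma adjusted p = 9.93e-05). The fold changes are those of TPM + 1, and so are smaller than the ratios of means. Both calls held without each of the 12 libraries in turn, with adjusted p-values of at most 0.00462. The genes Cxcl10 and Cxcl11 lie within Art3, a gene on the opposite strand. Art3 stood between 31.47 and 78.22 TPM in B16mhgp100 and between 11.6 and 33.83 TPM in B16F10. Cxcl11 shares no exon bases with Art3 and Cxcl10 shares 133 of 2252, and since counting by strand is not stated, reads of shared stretches cannot be told apart.

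Among Vector tumours, 2 of the 6 genes were called, beside 1.88% of 16556 genes, and both were higher in B16mhgp100, as were 1.09% of all genes. The other was Cxcl9, which averaged 31.5 ± 16.2 TPM in B16mhgp100 and 3.75 ± 1.18 TPM in B16F10, which is 2.63 on the log2 scale (SE 0.51, limma adjusted p = 0.0279). That call was lost without B16mhgp100 Vector 1, 3 or 4 and without any 1 of the 4 B16F10 libraries, at adjusted p-values between 0.0539 and 0.316, and with no filter on low values, at 0.0553. Cxcl10 was at 1.21 (limma adjusted p = 0.0560) and Cxcr3 at -1.10 (limma adjusted p = 0.223). Without the library labelled Aoah 4, which enters the shared estimate of the spread, both passed, at 0.0130 and 0.00965. Cxcl10 also passed without B16mhgp100 Vector 2, at 0.0153, and Cxcr3 with median-of-ratios scaling, at 0.0298. Cxcl16 was at 1.03, or 0.29 without B16F10 Vector 2 and 1.77 without B16F10 Vector 1, and Cxcr6 at 0.04 (95% interval -0.55 to 0.62), with limma adjusted p-values of 0.597 and 0.978 over all libraries. Without B16F10 Vector 2, Cxcr6 was at -0.20.

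Among Aoah tumours, 2 of the 6 genes were called, beside 3.7% of 16556 genes. Cxcl11 was higher in B16mhgp100, as were 1.61% of all genes, and Cxcr6 was lower, as were 2.08%. Cxcr6 averaged 1.10 ± 0.382 TPM in B16mhgp100 and 6.81 ± 0.764 TPM in B16F10, which is -1.91 on the log2 scale (SE 0.27, limma adjusted p = 0.00464). This call was lost without B16F10 Aoah 1 (adjusted p = 0.0506) or Aoah 2 (adjusted p = 0.0743). The 7 T cell markers were below 0 in 7 of 7 cases, with 4 called and a median of -1.90 beside -0.03 over all genes, and their part in the Cxcr6 difference was not tested. Cxcl9, called among Vector tumours, was at 0.90 here and Cxcl16 at -0.53, and neither was called (limma adjusted p = 0.378 and 0.724). Cxcl10 was at 1.01 and Cxcr3 at -1.17, and neither passed with all libraries, at adjusted p-values of 0.0720 and 0.114. Both passed without the library labelled Aoah 4, at 0.0178 and 0.0232, and with median-of-ratios scaling, at 0.0370 and 0.0239, and Cxcl10 also without B16mhgp100 Vector 2, at 0.0345. Values of the models did not overlap for 5 of the 6 genes among Aoah tumours and 4 of 6 among Vector tumours, beside 30.8% and 33.1% of all genes.

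**Figure D3:**
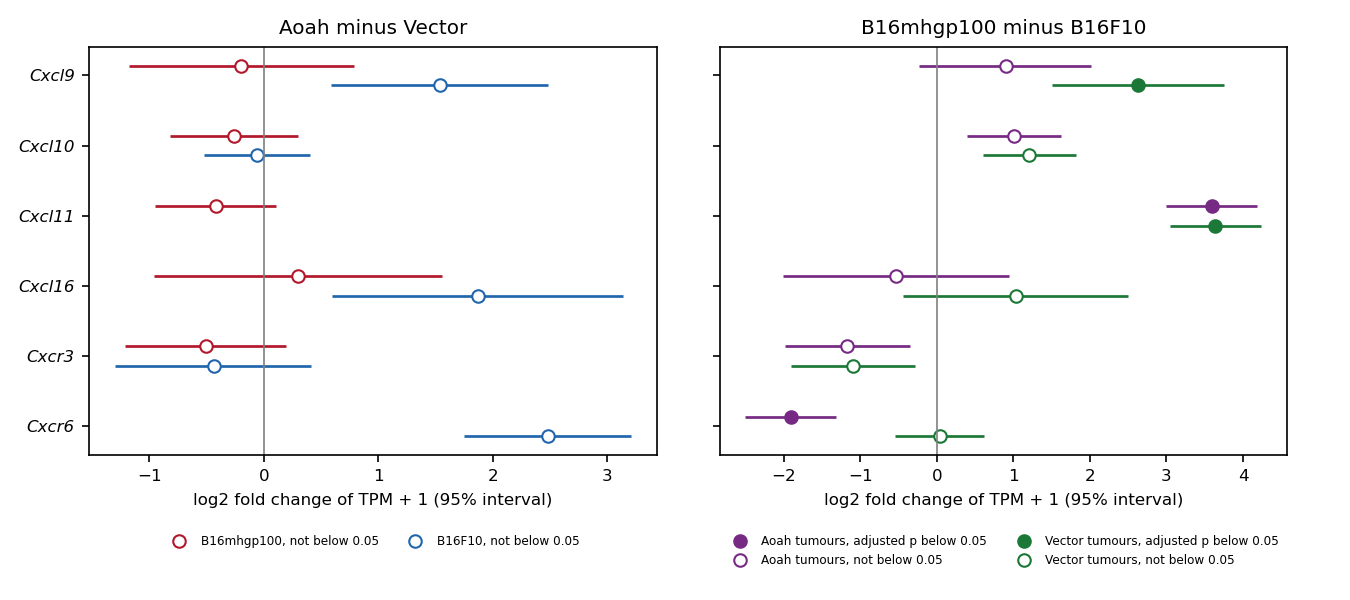
Log2 fold change of TPM + 1 of each gene with its 95% interval from limma, for Aoah minus Vector within each model (left) and B16mhgp100 minus B16F10 within each arm (right). Filled points are past an adjusted p of 0.05, and none of the Aoah minus Vector points is filled, while Cxcl11 is filled in both arms at 3.60 and 3.64.

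Cxcl9, Cxcl10 and Cxcl11 were compared as RNA, and whether Cxcl11 protein was made in these tumours was not measured. Among these 3, the share of Cxcl11 was apart between the models, and that of Cxcl9 between the B16F10 arms. Cxcl11 made up 6.00% to 10.1% of their summed TPM in the 8 B16mhgp100 tumours and 0.144% to 1.00% in the 4 B16F10 tumours. In B16F10, Cxcl9 made up 10.3% and 17.4% in Aoah tumours, against 4.65% and 3.74% in Vector tumours, while the sum of the 3 was 90.0 and 96.5 TPM in Aoah tumours, against 98.4 and 77.8 TPM in Vector tumours. The share of Cxcl9 was thus apart between the B16F10 arms and the sum was not. In B16mhgp100, the share of Cxcl9 was 17.9%, 9.80%, 10.6% and 11.2% in Aoah tumours, against 10.6%, 7.99%, 13.9% and 14.8% in Vector tumours, and the arms overlapped.

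**Figure D4:**
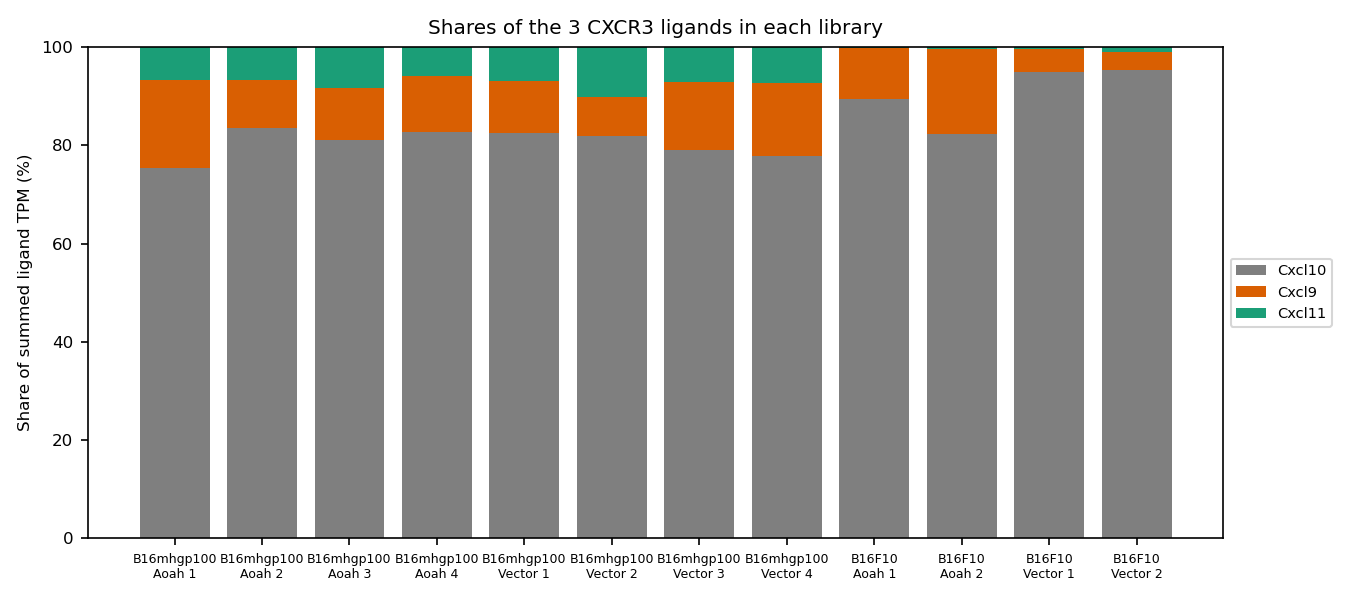
Share of Cxcl10, Cxcl9 and Cxcl11 in their summed TPM, in percent, for each of the 12 libraries as a stacked bar. Cxcl10 takes 75.3% or more of every bar, and the Cxcl11 segment is at most 1.00% in B16F10.

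Set against the 3 CD3 genes Cd3d, Cd3e and Cd3g, which encode invariant chains of the T cell receptor complex, the receptors behaved differently. The CD3 sum was 27.9 and 35.6 TPM in B16F10 Aoah tumours, against 5.20 and 1.33 TPM in B16F10 Vector tumours. Per unit of that sum, Cxcr6 was 0.225 and 0.206 in B16F10 Aoah tumours, against 0.123 and 0.143 in B16F10 Vector tumours, a smaller gap between the arms than that in TPM. Cxcr3 was 0.308 and 0.245 per unit of CD3 in B16F10 Aoah tumours, against 3.17 and 6.67 in B16F10 Vector tumours. It was thus below the CD3 sum in the Aoah tumours and above it in the Vector tumours of B16F10. These Vector ratios rest on low values. In B16F10 Vector 2, Cd3e and Cd3g were each at 0.26 TPM and Cxcr6 at 0.19 TPM. In B16mhgp100, Cxcr6 per unit of CD3 was 0.200, 0.268, 0.0752 and 0.153 in Aoah tumours, against 0.0855, 0.124, 0.0402 and 0.0512 in Vector tumours, with overlap. Cxcr3 per unit of CD3 was 0.740, 1.12, 0.507 and 0.124 in B16mhgp100 Aoah tumours, against 0.526, 1.41, 0.916 and 0.888 in Vector tumours. The lowest of these, 0.124, was in the library labelled Aoah 4.

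**Figure D5:**
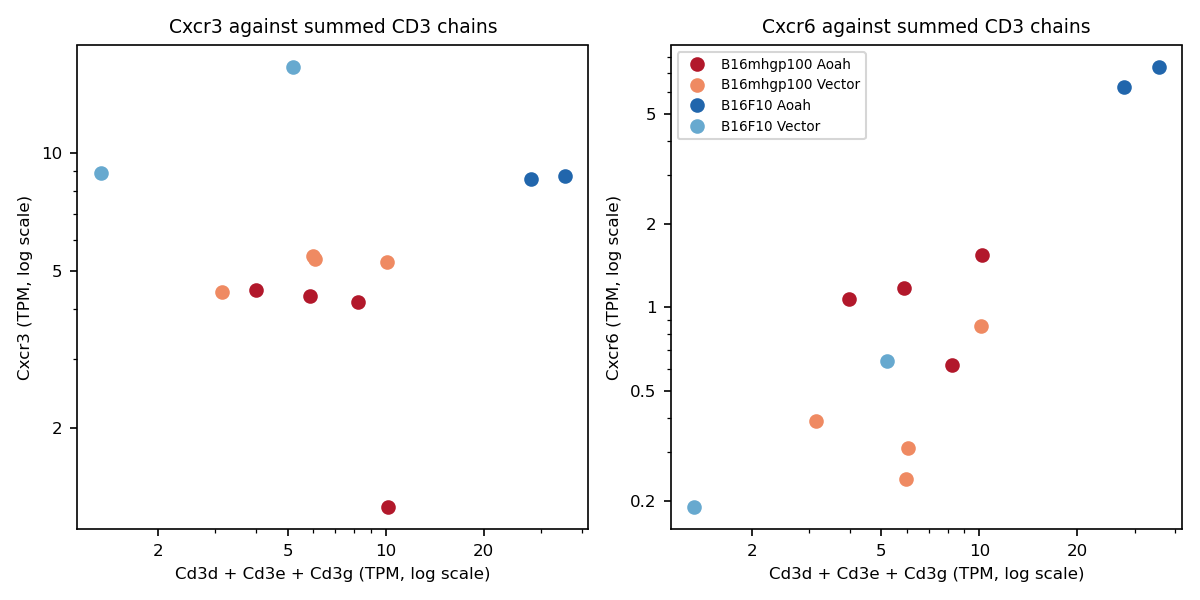
Level of Cxcr3 (left) and Cxcr6 (right) against the summed TPM of Cd3d, Cd3e and Cd3g, both on log scales, with 1 point for each of the 12 libraries coloured by group. Cxcr6 is highest where CD3 is highest, in B16F10 Aoah tumours, while Cxcr3 is highest at 16.46 TPM in a B16F10 Vector tumour with a CD3 sum of 5.20 TPM.

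Cxcl16 was also set against the mean of Adgre1 and Csf1r, markers of macrophages. The ratio was 1.10 and 0.820 in B16F10 Aoah tumours, against 0.392 and 0.207 in B16F10 Vector tumours, so the arms were apart by this measure too. In B16mhgp100 it was 0.484, 0.218, 0.674 and 1.57 in Aoah tumours, against 0.472, 0.381, 0.617 and 0.705 in Vector tumours, with overlap. Cxcl16 shares 552 of its 3021 exon bases with Zmynd15 on the opposite strand, which stood between 0.15 and 2.49 TPM.

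Genes of interferon-gamma, type I interferon and TNF signalling, with the inhibitor Socs1 among them, form the first of 4 lists. Of 14, 13 could be tested in B16F10 and 0 were called, beside 0.344% of all genes. Of these 13, 8 were above 0, with a median log2 fold change of 0.28 beside 0.02 over all genes. Socs1, an inhibitor of interferon signalling, was at 2.12 (limma adjusted p = 0.0585), and Irf1, a transcription factor induced by interferon, was at 2.19 (limma adjusted p = 0.0976). Ifng was at 1.58 and Tnf at 1.38, with limma adjusted p-values of 0.104 and 0.105. In B16mhgp100 0 of 13 were called, beside 0% of all genes. Socs1 was at 0.73 there and Ifnar1, a receptor chain for type I interferon, at -0.57 (limma adjusted p = 0.694 for both).

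Of 4 genes that act on these chemokines, 0 were called in either model, beside 0.344% of all genes in B16F10 and 0% in B16mhgp100. Adam10 and Adam17 encode proteases that shed Cxcl16, Dpp4 encodes a protease that trims the ligands of Cxcr3, and Ackr3 encodes a scavenger receptor that binds Cxcl11. In B16F10 all 4 were below 0, at -0.48, -0.37, -0.04 and -0.15 in that order. In B16mhgp100 Dpp4 was at 0.95 and Ackr3 at 0.86 (limma adjusted p = 0.694 for both).

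Among 15 other chemokines that attract T cells, 10 were tested in B16F10 and 1 rose, beside 0.289% of all genes called higher. Ccl5, a chemokine made by activated T cells, stood at 69.33 and 72.75 TPM in B16F10 Aoah tumours, against 9.92 and 6.89 TPM in B16F10 Vector tumours, which is 2.96 on the log2 scale (SE 0.24, limma adjusted p = 0.0286). Ccl4 was at 2.23, Ccl3 at 1.55 and Xcl1 at 0.82, with limma adjusted p-values of 0.0558, 0.0785 and 0.254. In B16mhgp100 0 of 9 were called, beside 0% of all genes, with Ccl4 at 1.20 and Ccl3 at 0.90. Of 18 other homing receptors and adhesion molecules, 0 of 11 tested in B16F10 were called, beside 0.344% of all genes. Itgal, the alpha chain of the integrin LFA-1, was at 2.22 (limma adjusted p = 0.0600), Selplg, a ligand of selectins, at 1.21, Itgb7 at 1.26 and Itga4 at -1.13. In B16mhgp100 0 of 12 were called, beside 0% of all genes, with Cx3cr1 at -0.62.

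For each gene, those with the most similar levels over the 12 libraries were found by Pearson's r of log2(TPM + 1). Libraries share composition, so these are descriptions. Cxcr6 was most like Zap70, at 0.986, followed by Lag3, Cd2, Cd8b1 and Gimap7, of which Zap70 encodes a kinase of T cell receptor signalling. Over the 8 B16mhgp100 libraries alone these 5 were lower, at 0.601 to 0.875. Cxcl9 was most like Casp1, at 0.943, then Ifi44, Apol6, Apol10b and Gsdmd. These 5 were at 0.694 to 0.837 over B16mhgp100 alone. Cxcl16 was most like Clec12a, at 0.962, a receptor of myeloid cells, then Neurl3, Plbd1, Coro1a and Ifng, at 0.916. Over B16mhgp100 alone the value for Clec12a was 0.977. Cxcl10 was most like Gpc6, at 0.956, then Spag1, Maml2, Ppp1r1c and Sec31a, which over B16mhgp100 alone were at 0.676 to 0.862. Cxcr3 was most like Echdc3, at 0.980, then Fam32a, Bahcc1, Zw10 and Pdia6, none of them among the T cell markers. Cxcl11 was most like Hspb8, at 0.988, then Ccdc160, Piwil2, Ky and Nr5a1. Over B16mhgp100 alone these 5 were lower, at 0.597 to 0.791. Without the library labelled Aoah 4, the first gene named for each of the 6 was between 0.945 and 0.988.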

How the data were processed

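RNA of 12 tumours was measured by polyA RNA-seq, and groups were taken from the sample titles. The authors deposited log2(TPM + 1) values, from which TPM was recovered by removing the pseudocount of 1. Per the submitters' processing notes, RSEM and DESeq2 were used with genome build mm39. Exon overlaps between genes were read from a GENCODE annotation of the older build GRCm38, and may differ from those behind the TPM values. Since TPM does not hold read depth, no counting interval could be given. The authors also deposited a comparison table per model, with the mean normalised count as a score, the log2 fold change, its error, a test score and p-values. Identifiers there were paired with symbols through a gene name table, for 29916 of 31267 in B16mhgp100 and 25784 of 26878 in B16F10. The sign of the authors' deposited fold changes matched Aoah minus Vector here in 80.5% and 97.3% of the genes compared. The deposited repertoire table gives clones per library, with no settings stated.

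Values were tested with limma 3.58.1 in R 4.3.3, with an intensity trend, 2-sided, on log2(TPM + 1). Genes were kept at 1 TPM or more in a number of libraries equal to the smallest group of a fit or more. Adjustment ran over all genes kept, and the fit was tested on simulated data. Each model was fitted alone for Aoah minus Vector, and all 12 libraries with 4 group means for the rest. The fits have no pairing term. Lists and the rule for named genes (all 6 genes, and in each list up to 4 with the smallest p in B16F10 and up to 2 in B16mhgp100) were chosen with earlier results of these data known, as were the 6 genes. From the lists, 1 gene that the rule names is not reported here. For likeness, the 5 highest r were named, leaving out the 6 genes, predicted gene models and receptor segments. Alternatives were a pseudocount of 0.1 TPM, no filter, median-of-ratios scaling, a replicate block, a fit of all 12 libraries and leaving out each library. Planned protein comparisons were not made here.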

Additional observations from a re-analysis of the deposited data

Results flagged for a closer look

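Among the 4 tumours of a B16mhgp100 group, 3 values stood far from their neighbours. The gap to the nearest value, divided by the range of the group, was above Dixon's 95% critical value for 4 samples. Gaps and ranges were taken on log2(TPM + 1), so the ratios do not follow from the TPM values given beside them. Cxcl11 at 9.93 TPM in the library labelled Aoah 4 had a ratio of 0.951, with the other Aoah tumours at 15.27 to 15.61 TPM. Cxcr3 at 1.26 TPM in the same library had a ratio of 0.936, with the others at 4.18 to 4.48 TPM. Cxcr3 at 4.42 TPM in B16mhgp100 Vector 2 had a ratio of 0.841, with the others at 5.29 to 5.47 TPM. That ratio was only just above the critical value, and the mark may not hold on TPM itself. In all, 14 sets of 4 values were tested, 7 genes in 2 groups, and chance marks about 1 in 20. The library labelled Aoah 4 had a scaling factor of 0.626, and the other libraries lay between 0.9066 and 1.141.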

How the results depend on the processing

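For Aoah minus Vector in B16mhgp100, 0 genes were called, 1 with a pseudocount of 0.1 TPM and 0 to 2 without single libraries. In B16F10, 50 were called, and 32 with a pseudocount of 0.1 TPM, 0 with no filter, 128 with median-of-ratios scaling and 0 without any single library, where the lone library of an arm is assumed to vary like the other arm. The fit of all 12 libraries called 61 genes for B16F10. Of the 6 genes, 1 was called in B16F10 with median-of-ratios scaling and 1 in the fit of all 12 libraries, Cxcr6 both times. The difference between the Aoah effects called 5 genes, 46 with no filter, 10 with median-of-ratios scaling and 2 to 45 without single libraries. The shared effect called 0 genes, 2 with no filter and 0 to 1 without single libraries.

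Between models, Vector tumours gave 312 calls, 483 with median-of-ratios scaling and 115 to 2113 without single libraries. Of the 6 genes 2 were called, 1 with no filter and 1 to 4 without single libraries. Aoah tumours gave 612 calls, 1347 with median-of-ratios scaling and 77 to 3448 without single libraries, the highest in both arms being without the library labelled Aoah 4. Of the 6 genes 2 were called, 4 with median-of-ratios scaling and 1 to 4 without single libraries. In the counts the cause was not tested.

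Directions that turned were all of values not called. In B16mhgp100, Cxcl9 was 0.00 with median-of-ratios scaling and -0.58 to 0.04 without single libraries, and Cxcl16 was -0.16 to 0.68. In B16F10, without single libraries, Cxcl10 was -0.22 to 0.11, Dpp4 was -0.43 to 0.34, and Ackr3 -0.41 to 0.11. The difference between the Aoah effects was -0.65 for Cxcl11 with a pseudocount of 0.1 TPM. With median-of-ratios scaling it was -0.17 for Cxcl11, -0.01 for Cxcl10 and -0.08 for Cxcr3. Without single libraries it was -0.12 to 0.21 for Cxcl11 and -0.35 to 0.48 for Cxcr3. Among Vector tumours Cxcr6 was -0.20 to 0.27 between the models. Median-of-ratios scaling moved the median of all genes by 0.18 in B16mhgp100, -0.17 in the difference, 0.11 in the shared effect and -0.11 among Vector tumours.

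In B16mhgp100, equal replicate numbers did not pair the tumours, with correlations of deviations of -0.239, -0.212, 0.0684 and -0.0743. In B16F10 the correlation was -0.0841 for equal numbers and 0.0841 for unequal ones. With 2 libraries an arm these can differ only in sign, so pairing in B16F10 could not be settled. With the replicate block, 765 genes and 3 of the 6 were called in B16F10, Cxcr6, Cxcl16 and Cxcl9 (adjusted p = 4.38e-06, 0.00246 and 0.0291), and the difference between the Aoah effects called 2 genes. Comparisons between models could not be fitted with the block. TPM gives no depth, so low values such as Cxcr6 and Cxcl11 in B16F10 have unknown counting error.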
